A study of Rattus norvegicus with 6 samples.

Results

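The mitochondrial ribosomal proteins are the protein components of the ribosome that works inside mitochondria. Their transcripts were read in the left ventricle of diabetic and normal rats. Members were all probe sets whose single annotation symbol begins with Mrpl (large subunit) or Mrps (small subunit), whether written with a capital or, as for 3 of them, in lower case. This gave 85 probe sets for 74 genes, out of 15866 probe sets and 10411 named genes. Each gene was read at its brightest probe set by the mean over the 6 arrays, and by symbol 48 genes belonged to the large subunit and 26 to the small one. Other proteins of this ribosome are not analysed here, apart from the 5 given below under other symbols.

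Total RNA came from 3 rats labelled diabetic and 3 labelled normal, with 1 single-colour Affymetrix array for each heart. The design sets the diabetic ventricle against the normal one. The labels used here name no strain, sex, age, cause or length of diabetes, or treatment of the normal rats. The samples are labelled left ventricle, and 9 of 10 listed cardiomyocyte markers were on the array and bright enough to test. Myl2, the ventricular myosin light chain, gave at least 39566.2 signal units on every array.

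The mitochondrial genome of mammals encodes a small set of subunits of the respiratory chain and of ATP synthase, and only the mitochondrial ribosome translates them. Its proteins are all encoded in the nucleus, made in the cytosol and imported. The small subunit decodes the messenger RNA, and the large subunit forms the peptide bond and feeds the new chain to the inner membrane. Heart muscle is rich in mitochondria, and inherited defects in several of these proteins in humans cause cardiomyopathy.

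No mitochondrial ribosomal protein transcript passed the test. Of 74 members, all of which were bright enough to be tested, 0 rose and 0 fell in the diabetic ventricles at an adjusted p under 0.05 (limma, Benjamini-Hochberg over all tested probe sets), against backgrounds of 1.5% risen and 1.38% fallen among 9519 tested probe sets. At an unadjusted p under 0.05, 9 members were lower and 2 higher in diabetic arrays, which is 12.2% and 2.70% of the members, where 10.3% and 9.54% of all tested probe sets met the same limit. The 0 fallen became 1 (Mrpl42) with a stricter filter on dim probe sets and 3 (Mrpl42, Mrps16 and Mrpl37) with an intensity trend in the fit, where 6.89% and 5.54% of all tested probe sets were called in either direction. At an adjusted p under 0.1, 1 member rose and 3 fell, where 3.42% of all tested probe sets rose and 3.66% fell. With 3 animals in each group an exact permutation test of a single gene cannot go below p = 0.1, so the calls rest on the limma fit, in which probe sets inform each other's variance. Here and below a log2 fold change is diabetic minus normal on the scale log2(signal + 16), and an SE or interval is that of the limma fit.

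The differences were small in both directions. Log2 fold changes of the members ran from -0.58 to 0.55, with a median of -0.078, against a median of -0.012 over all tested probe sets. They were below 0 at 45 members and above 0 at 29. A size over 0.5 was reached by 4 members, or 5.41%, against 14.1% of all tested probe sets. The 95% interval lay wholly within a 2-fold change either way at 74 of 74 members, and at 87.1% of all tested probe sets. The median half-width of that interval was 0.35 on the log2 scale for members and 0.40 for all tested probe sets. These intervals are not adjusted for the number of tests, and differences as large as -0.58 did not pass the adjusted threshold. The members were also brighter, with a mean log2 signal 1.16 to 1.30 above that of all tested probe sets on every array. The part of brightness in the narrower spread of the members was not tested.

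**Figure D1:**
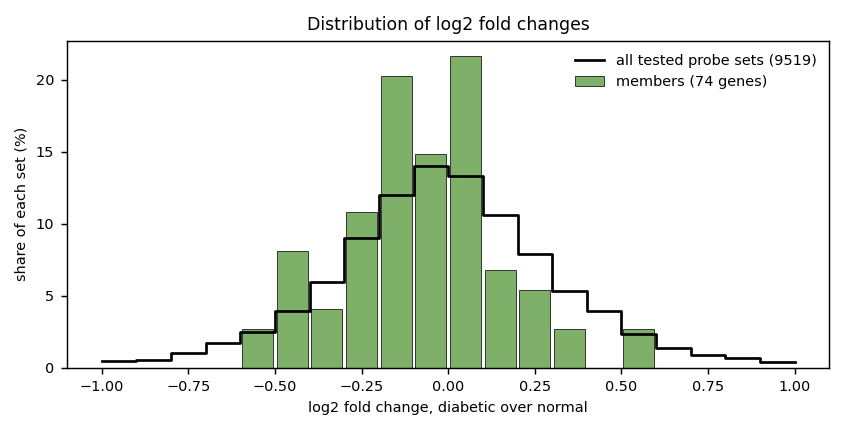
Share in percent of the 74 members (bars) and of the 9519 tested probe sets (line) in bins of 0.1 in log2 fold change, diabetic over normal. No member lies beyond -0.58 or 0.55, while 2.26% of all tested probe sets lie outside the plotted range of 1 either way.

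Every diabetic array lay below every normal array at 18 members, or 24.3%, where 13.6% of all tested probe sets did so. All diabetic arrays lay above all normal ones at 7 members, or 9.46%, where the background was 12.1%. The groups overlapped at the other 49 members. Members share their arrays, so these counts describe the 6 hearts and are no test. Normal 3 held the highest signal of 20 members and diabetic 1 the lowest of 21, the largest such counts among the 6 arrays. Without normal 3 the number of members with a log2 fold change below 0 was 41 in place of 45, with a median of -0.047. The number was 51 without diabetic 2, with a median of -0.094, and 46 without normal 1, with a median of -0.10.

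In whole tissue, fewer cells of a type and less RNA per cell cannot be told apart. Summed signals of the 9 cardiomyocyte markers ran from 248746 to 322522 in diabetic and from 251915 to 323741 in normal arrays, with 1 of them risen (Myh7) and 1 fallen (Myh6). Those of the 8 fibroblast markers ran from 20737 to 22012 in diabetic arrays and from 32322 to 37168 in normal ones, with 4 of 7 tested markers fallen, all 4 of them matrix genes. The other tested fibroblast markers, Dcn, Pdgfra and Tcf21, had overlapping groups. Dcn, also a matrix gene, had a log2 fold change of -0.010 (limma adjusted p = 0.982). Sums for the endothelial, smooth muscle, macrophage, erythroid and adipocyte markers overlapped between the groups, and no tested marker of these lists passed. The sum of the 4 atrial markers was 20566 to 30669 in diabetic and 3871 to 5176 in normal arrays, where Nppa alone rose. Most of that sum was Nppa, at 19732.6 to 29350.2 in diabetic and 3261.9 to 3934.5 in normal arrays. The other atrial markers, Myl7, Myl4 and Sln, were far dimmer and had overlapping groups. The part of any of these cell types in the members' small differences was not tested.

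Among the members the smallest p belonged to Mrpl42, a mitochondrion-specific protein of the large subunit. Its signal was 1747.0, 2163.4 and 2132.4 in diabetic 1, 2 and 3, against 3000.1, 2678.7 and 3409.0 in normal 1, 2 and 3. All diabetic arrays were below all normal arrays, and the lowest was diabetic 1. The log2 fold change was -0.58 ± 0.16 (SE, limma adjusted p = 0.0900), with a 95% interval of -0.95 to -0.22.

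Mrps16, a small subunit protein with a bacterial counterpart whose loss in humans impairs mitochondrial translation, gave 2405.9, 2147.5 and 2061.3 in diabetic arrays, against 3290.1, 2806.6 and 3712.5 in normal ones. The groups did not overlap, and the normal arrays were the more scattered, with an SD of 453 against 179 in diabetic arrays (n = 3 each). The log2 fold change was -0.56 ± 0.16 (limma adjusted p = 0.0961).

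The 2 largest positive differences were both in the small subunit. Mrps31, also known as imogen 38, an islet mitochondrial antigen in human type 1 diabetes, gave 347.9, 431.0 and 467.8 in diabetic arrays, against 283.4, 284.2 and 260.6 in normal ones. The normal arrays were close together and all lay below the diabetic ones. The log2 fold change was 0.55 ± 0.16, which is 1.47-fold, with a limma adjusted p of 0.0950. Mrps27, a pentatricopeptide repeat protein of the small subunit, gave 979.6, 1039.8 and 859.7 in diabetic arrays, against 782.8, 624.9 and 592.1 in normal ones. Its groups did not overlap either, though normal 1 came near to diabetic 3, and the log2 fold change was 0.52 ± 0.16 (adjusted p = 0.121).

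The 250 bases before the start sites of these 4 genes are shown because they belong to the 2 most negative and the 2 most positive members. They come from RefSeq, build GRCr8, and are written on the gene's strand. Capitals mark CCGGAAG, in either direction, which is the letters of an ETS-type site such as GABP binds.
Mrpl42, chr7:32028523-32028772, minus strand: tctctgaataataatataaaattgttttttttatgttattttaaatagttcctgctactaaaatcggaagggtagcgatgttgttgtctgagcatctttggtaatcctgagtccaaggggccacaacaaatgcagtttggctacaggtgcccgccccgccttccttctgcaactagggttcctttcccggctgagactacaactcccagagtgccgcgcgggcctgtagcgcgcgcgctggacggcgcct
Mrps16, chr15:3967559-3967808, plus strand: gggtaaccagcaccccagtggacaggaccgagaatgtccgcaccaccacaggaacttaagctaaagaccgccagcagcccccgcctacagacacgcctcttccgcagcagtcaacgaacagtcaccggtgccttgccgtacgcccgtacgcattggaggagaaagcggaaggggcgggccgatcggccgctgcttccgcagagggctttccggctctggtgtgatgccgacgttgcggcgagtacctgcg
Mrps31, chr16:76324066-76324315, minus strand: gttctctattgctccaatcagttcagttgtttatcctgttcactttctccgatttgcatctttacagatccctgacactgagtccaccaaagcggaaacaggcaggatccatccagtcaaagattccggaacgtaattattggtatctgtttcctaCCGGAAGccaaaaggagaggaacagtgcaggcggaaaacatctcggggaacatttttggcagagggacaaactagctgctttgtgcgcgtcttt
Mrps27, chr2:32473954-32474203, plus strand: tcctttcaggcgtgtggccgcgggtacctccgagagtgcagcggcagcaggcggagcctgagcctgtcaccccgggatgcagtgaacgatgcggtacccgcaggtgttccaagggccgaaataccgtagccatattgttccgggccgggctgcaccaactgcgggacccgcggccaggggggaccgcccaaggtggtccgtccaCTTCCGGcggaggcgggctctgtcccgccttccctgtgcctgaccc
The letters begin 94 bases before the start in Mrps31, on the gene's strand, and 46 bases before it in Mrps27, on the opposite strand. They are not in the shown stretch of Mrpl42 or Mrps16, which says nothing of whether such a factor acts there. In the windows searched below, the same letters were found in members with log2 fold changes on both sides of 0. Among them were Mrpl3 at -0.45, Mrpl33 at -0.31, Mrpl36 at 0.27 and Mrpl52 at 0.31.

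**Figure D2:**
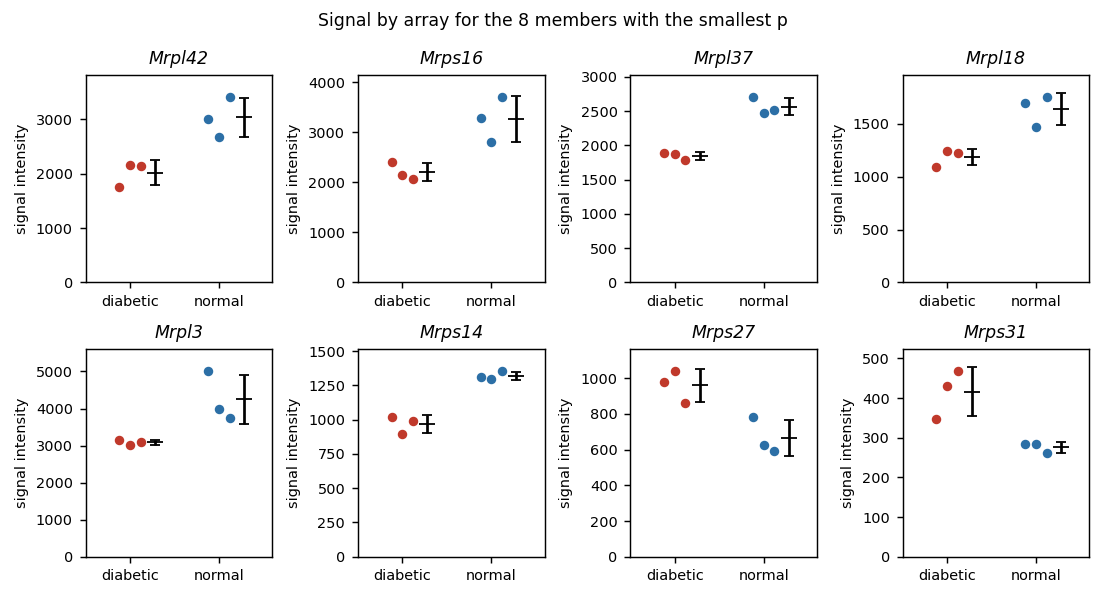
Signal intensity (linear axis from 0) by array for the 8 members with the smallest p, ordered by log2 fold change. Points are arrays and the bar beside them is the mean and SD (n = 3), with diabetic left of normal; in Mrpl42, Mrps16, Mrpl37, Mrpl18, Mrpl3 and Mrps14 all diabetic points lie below all normal points, and in Mrps27 and Mrps31 all lie above.

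In the large subunit, 28 of 48 log2 fold changes were below 0, with a median of -0.067 and a range of -0.58 to 0.31. Mrpl37, another mitochondrion-specific protein, had narrow groups, with an SD of 55.4 in diabetic and 126 in normal arrays (n = 3 each). Its signal was 1890.2, 1868.8 and 1785.3 in diabetic arrays, against 2706.9, 2473.4 and 2507.8 in normal ones, with no overlap. The log2 fold change was -0.47 ± 0.13 (limma adjusted p = 0.0987).

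Mrpl3, which lies near the peptidyl transferase centre and is mutated in a human cardiomyopathy, gave 3156.5, 3012.9 and 3093.1 in diabetic arrays, against 5009.5, 3986.0 and 3752.2 in normal ones. The diabetic arrays agreed closely, and normal 1 stood above the other normal arrays. The log2 fold change was -0.45 ± 0.16 (limma adjusted p = 0.158). It was -0.32 without normal 1.

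Mrpl18, a relative of the bacterial protein that binds the ribosomal 5S RNA, averaged 1186 ± 77.7 in diabetic and 1641 ± 150.2 in normal arrays (SD, n = 3 each), a log2 fold change of -0.46 ± 0.15 (limma adjusted p = 0.125). Mrpl24, a conserved large subunit protein, averaged 1648 ± 89.6 in diabetic and 2307 ± 399 in normal arrays, with a log2 fold change of -0.47 ± 0.17 (adjusted p = 0.163). Neither gene's groups overlapped. Without normal 1 the log2 fold change of Mrpl24 was -0.36, and without normal 2 it was -0.61, so its size rested partly on single normal arrays.

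Mrpl33, a small conserved protein chosen after its value was seen, completed the 11 members with an unadjusted p under 0.05. It gave 2472.8, 2457.0 and 2385.7 in diabetic arrays, against 3087.7, 3058.1 and 2906.7 in normal ones. Both groups were tight and did not overlap, and the log2 fold change was -0.31 ± 0.13 (limma adjusted p = 0.242).

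Of the proteins of the stalk that binds translation factors, 3 are named here. Mrpl12, the stalk protein itself, which has also been found with the mitochondrial RNA polymerase, gave 2124.0, 2364.2 and 2238.8 in diabetic arrays, against 2631.7, 2680.8 and 3145.3 in normal ones. Its groups did not overlap, and the log2 fold change was -0.32 ± 0.14 (limma adjusted p = 0.254). Mrpl10, which anchors the stalk, averaged 699.7 ± 110.3 in diabetic and 669 ± 52.9 in normal arrays, a log2 fold change of 0.054 ± 0.16 (adjusted p = 0.895). Mrpl11, at the base of the stalk, was at 0.080 ± 0.16 (adjusted p = 0.833). Both of these had overlapping groups, and their signs turned with single arrays left out, to -0.058 for Mrpl10 without diabetic 1 and to -0.035 for Mrpl11 without normal 2.

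Mrpl44, which resembles a ribonuclease III and is mutated in human infantile cardiomyopathy, averaged 489.9 ± 91.2 in diabetic and 525 ± 67.6 in normal arrays, with overlapping groups and a log2 fold change of -0.11 ± 0.18 (limma adjusted p = 0.805). Mrpl58, a peptidyl-tRNA hydrolase that frees stalled chains and is built into the large subunit, gave 1112.9, 1392.9 and 1393.0 in diabetic arrays, against 1521.8, 1599.2 and 1515.3 in normal ones. All diabetic arrays were lower, and the log2 fold change was -0.25 ± 0.15 (adjusted p = 0.388), or -0.15 without diabetic 1.

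The positive end of the large subunit was smaller in size. Mrpl52 had a log2 fold change of 0.31 ± 0.17 (limma adjusted p = 0.348), with overlapping groups. Mrpl9, a conserved protein, gave 1345.6, 1321.1 and 1486.1 in diabetic arrays, against 1180.0, 1146.3 and 1020.9 in normal ones, with no overlap and a log2 fold change of 0.31 ± 0.14 (adjusted p = 0.270). Mrpl36, a conserved protein, was at 0.27 ± 0.15 and Mrpl51 at 0.25 ± 0.14, both without overlap. Mrpl43 was at 0.21 ± 0.15 with overlapping groups, and at 0.14 without normal 3. Their adjusted p values ran from 0.352 to 0.487.

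In the small subunit, 17 of 26 log2 fold changes were below 0, with a median of -0.11 and a range of -0.56 to 0.55. Mrps14, a conserved protein of the head of the small subunit, had very tight normal arrays. Its signal was 1023.0, 898.1 and 990.2 in diabetic arrays, against 1314.4, 1296.8 and 1354.5 in normal ones. The groups were well apart, with a log2 fold change of -0.44 ± 0.14 (limma adjusted p = 0.119).

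Mrps28 averaged 904 ± 152.7 in diabetic and 1224 ± 148.8 in normal arrays (SD, n = 3 each), and every diabetic array was lower. Its log2 fold change was -0.44 ± 0.18 (limma adjusted p = 0.208), and it was -0.30 without diabetic 1. Mrps15, a conserved protein, was at -0.28 ± 0.16 (adjusted p = 0.379) with overlapping groups. Mrps22, another protein mutated in human cardiomyopathy, averaged 830.1 ± 43.6 in diabetic and 945 ± 61.1 in normal arrays, a log2 fold change of -0.18 ± 0.14 (adjusted p = 0.511). Its groups did not overlap.

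Mrps12, Mrps5 and Mrps2, small subunit proteins with bacterial counterparts, had overlapping groups. Mrps12, which helps to shape the decoding centre, averaged 1002 ± 58.5 in diabetic and 1037 ± 143.2 in normal arrays, a log2 fold change of -0.041 ± 0.16 (limma adjusted p = 0.919). Mrps5 was at 0.0026 ± 0.18 and Mrps2 at -0.14 ± 0.18. The sign of the Mrps12 and Mrps5 values turned when single arrays were left out, and Mrps2 was at -0.0013 without normal 3.

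Apart from Mrps31 and Mrps27, the positive members of the small subunit were close to 0. Mrps6 was at 0.15 ± 0.19, Mrps25 at 0.15 ± 0.14 and Mrps18b at 0.15 ± 0.16 (limma adjusted p from 0.611 to 0.718). With single arrays left out, Mrps6 ranged from 0.0014 (without diabetic 1) to 0.30 (without diabetic 3), Mrps18b from 0.038 (without diabetic 2) to 0.24 (without diabetic 3), and Mrps25 was at 0.071 without diabetic 3. Only Mrps25 of these had all diabetic arrays above all normal arrays, with 1590.0, 1605.5 and 1881.7 in diabetic arrays, against 1543.7, 1539.5 and 1479.0 in normal ones. Its margin between the groups was narrow.

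Some symbols do not match the place of the protein. Mrps30 and Mrps18a carry small subunit names, and in the structure of the mammalian ribosome both sit in the large subunit. Mrps30 gave 1039.5, 1070.1 and 1077.9 in diabetic arrays, against 1197.8, 1323.5 and 1347.0 in normal ones, with no overlap and a log2 fold change of -0.27 ± 0.14 (limma adjusted p = 0.306). Mrps18a was at 0.046 ± 0.14 (adjusted p = 0.890). With both counted in the large subunit, the medians of 50 large and 24 small subunit members were still -0.067 and -0.11.

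**Figure D3:**
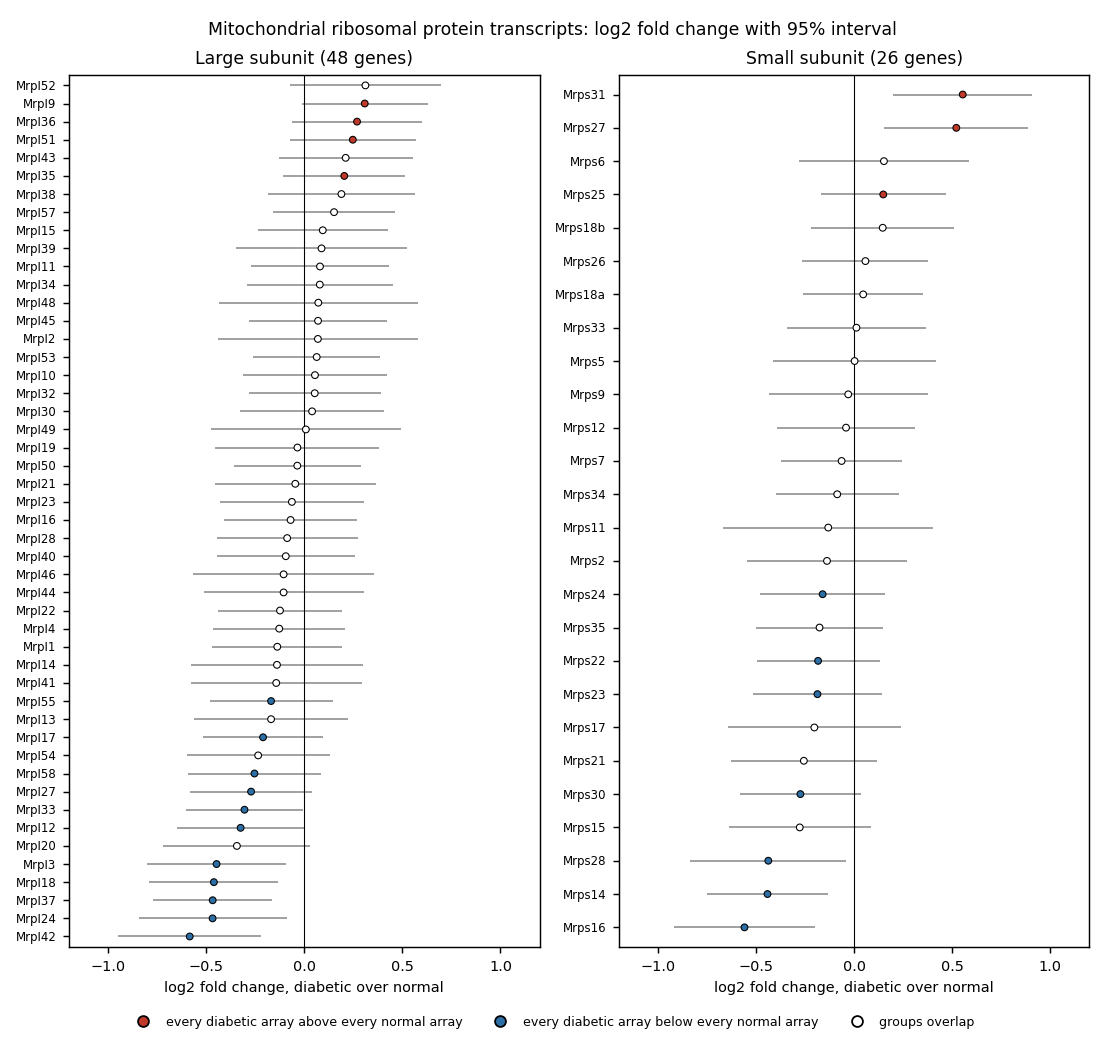
Log2 fold change, diabetic over normal, with its 95% interval (limma) for the 48 large and 26 small subunit genes, each panel sorted by value. Red points mark the 7 genes with all diabetic arrays higher, blue points the 18 genes with all diabetic arrays lower, and open points the 49 with overlap; no interval reaches beyond a log2 change of 1.

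The large and small subunits did not separate. The median log2 fold change of the large subunit minus that of the small subunit was 0.042. To compare arrays, each gene's log2 signal was set against its own mean over the 6 arrays, and the deviations were averaged over a subunit. The large subunit stood at -0.082, 0.033 and -0.056 in diabetic 1, 2 and 3, and at 0.017, 0.0014 and 0.087 in normal 1, 2 and 3. Diabetic 2 was thus among the normal arrays. The small subunit stood at 0.0028, -0.058 and -0.061 in diabetic arrays, and at 0.022, 0.030 and 0.064 in normal ones, with no overlap.

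Taken within each array, the large minus the small subunit deviation was -0.085, 0.090 and 0.0049 in diabetic arrays, and -0.0053, -0.028 and 0.023 in normal ones. The diabetic arrays spanned more than the whole normal range on either side, with an SD of 0.088 in diabetic and 0.026 in normal arrays (n = 3 each). The difference of the group means was 0.0068. The difference of the medians ranged from -0.037 without diabetic 2 to 0.10 without diabetic 1, so even its sign depended on single arrays.

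The members can also be grouped by evolutionary origin. Here 42 members were listed as having a counterpart in the bacterial ribosome, and 29 as mitochondrion-specific. These lists do not follow the unified naming of ribosomal proteins throughout. Mrps18b, a relative of a bacterial protein, counts as mitochondrion-specific, and Mrps18a, Mrps30 and Mrpl55 were placed in neither class. Their log2 fold changes were 0.046 for Mrps18a, -0.27 for Mrps30 and -0.17 for Mrpl55. Log2 fold changes were below 0 at 30 of 42 conserved members, with a median of -0.13, and at 13 of 29 mitochondrion-specific members, with a median of 0.012. Over all tested probe sets 52.0% were below 0. None of either class passed the test, and members are not replicates, so the difference between the classes was not tested. The conserved minus the mitochondrion-specific median was -0.14 with all arrays and -0.046 without normal 1, where 27 of 42 and 17 of 29 members were below 0.

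The conserved members had mean deviations of -0.053, -0.034 and -0.098 in diabetic arrays, and of 0.074, 0.0090 and 0.10 in normal ones. All diabetic arrays were below all normal ones, by a small margin between diabetic 2 and normal 2. The mitochondrion-specific members stood at -0.049, 0.057 and 0.0015 in diabetic arrays, and at -0.064, 0.0043 and 0.050 in normal ones, with overlapping groups. Within the small subunit, 12 of 14 conserved members had a negative log2 fold change, Mrps16 and Mrps14 among them. Of the 10 mitochondrion-specific members of that subunit 4 did, and both Mrps31 and Mrps27 belong to this class.

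**Figure D4:**
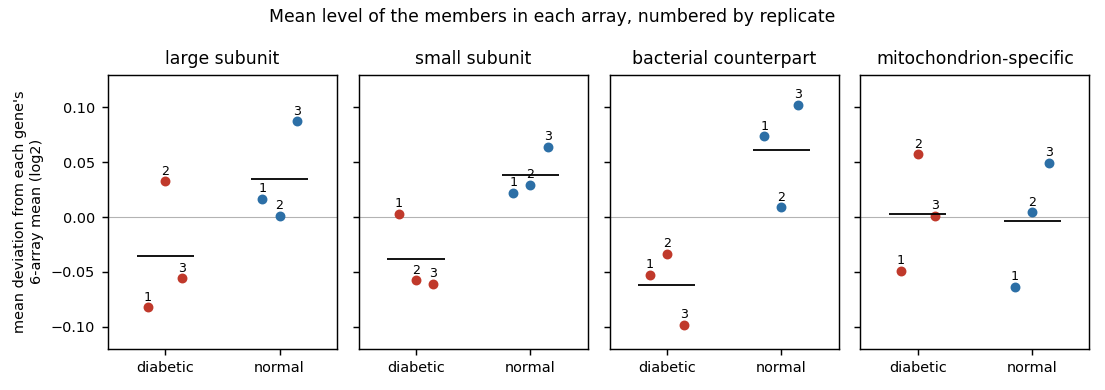
Mean deviation of the members' log2 signal from each gene's own mean over the 6 arrays, for the large subunit (48 genes), the small subunit (26), conserved members (42) and mitochondrion-specific members (29). Points are arrays numbered by replicate and lines are group means, with diabetic left of normal; the groups do not overlap in the small subunit and the conserved class, and overlap in the large subunit and the mitochondrion-specific class.

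For 8 members the array carries more than 1 probe set. For Mrpl37 the brightest probe set was at -0.47 and the next at -0.25 ± 0.15 (log2, limma adjusted p = 0.391), while a last one was too dim to test. For Mrpl40 the values were -0.095 and -0.21, and the -0.095 ranged from -0.21 (without diabetic 2) to -0.013 (without diabetic 1), and for Mrpl50 -0.036 and -0.029. For Mrpl49 they were 0.0077 and -0.19, for Mrpl52 0.31 and 0.035, and for Mrpl57 0.15 and 0.023. The dimmer probe set of Mrps26 lay below the filter, and the brighter gave 0.058 ± 0.14.

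Mrpl51, a mitochondrion-specific protein, was the member whose probe sets covered the widest range of log2 fold changes. Its brightest probe set gave 1358.0, 1182.6 and 1298.0 in diabetic arrays, against 1145.8, 988.3 and 1093.3 in normal ones, all higher in diabetic arrays. The dimmest of its 4 probe sets gave 135.8, 199.9 and 138.3 in diabetic arrays, against 217.3, 237.7 and 198.2 in normal ones, where the groups overlapped and 2 of the 3 diabetic arrays lay far below. Log2 fold changes in order of brightness were 0.25, -0.33, -0.0053 and -0.44, and none passed (limma adjusted p from 0.207 to 0.991). The direction of Mrpl51 is therefore uncertain.

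**Figure D5:**
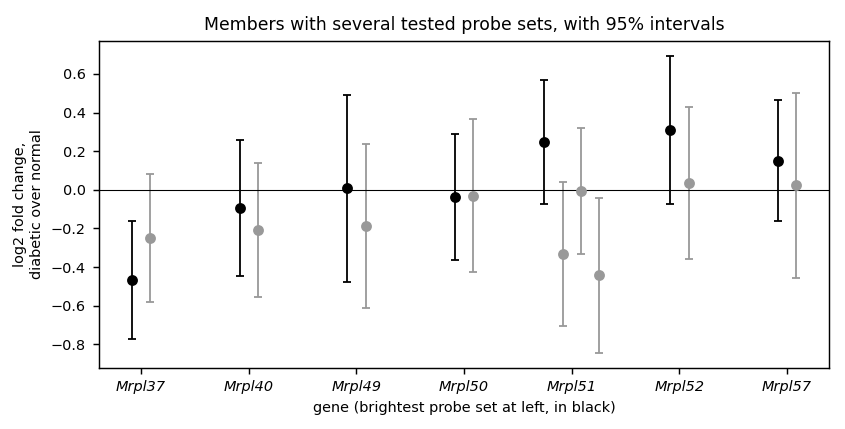
Log2 fold change, diabetic over normal, with 95% interval (limma) for the 7 members with more than 1 tested probe set. Black points at the left of each gene are the brightest probe set, grey points the dimmer ones; those of Mrpl51 run from 0.25 to -0.44.

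Promoters of 60 of the 74 members were in the RefSeq table (GRCr8, 250 bases before to 50 after the start), and the other 14 were not searched. In vertebrates, promoters of many nuclear genes for mitochondria carry sites for NRF1, for GABP of the ETS family and for YY1. The letters CCGGAAG (ETS) were in 31.7% of the members' windows, against 19.2% of those of 5897 genes tested on the array, members included, and 9.22% of all 27457 windows. GCGCATGCG (NRF1) was in 8.33%, against 3.61% of tested genes and 1.66% of all windows. AAGATGGCG (YY1) was in 13.3%, against 4.66% and 1.93%. Both strands were searched, and at least 1 of the 3 was found in 28 of 60 members. The ETS and YY1 letters can share the bases AAG, but in 0 of the 60 windows did matches of different motifs share a base.

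The YY1 letters are shown in all 8 members that held them because 7 of these matches fall at or just after the start. The letters are in capitals with up to 10 bases either side, on the gene's strand.
Mrpl42, chr7:32028485-32028513: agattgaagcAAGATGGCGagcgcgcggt
Mrpl37, chr5:127074943-127074971: tgcccgggcaAAGATGGCGgcgtccaggt
Mrps30, chr2:52195868-52195896: gcggaggacaAAGATGGCGgctgccaggt
Mrpl46, chr1:142116988-142117016: ggaagacggaAAGATGGCGgcgcccatag
Mrpl50, chr5:68668043-68668071: gagcttgtcgAAGATGGCGgcgctgtgtg
Mrps18a, chr9:22367362-22367390: gtgtgttcccAAGATGGCGgccctcaggg
Mrpl36, chr1:31795120-31795148: cgtgaccctaCGCCATCTTtctttctggc
Mrps27, chr2:32474223-32474251: ggtacgctccAAGATGGCGgcccccatgg
All are on the minus strand of GRCr8 but Mrps27, which is on the plus strand. In 7 of them the letters run with the gene and begin between base 1 and base 30 of the transcript, and in Mrpl36 they run against it, from 17 bases before the start. The letters contain ATG, so a match there can also be a start codon. They are listed by log2 fold change, which was -0.58 for Mrpl42, -0.47 for Mrpl37, -0.27 for Mrps30, -0.11 for Mrpl46, -0.036 for Mrpl50, 0.046 for Mrps18a, 0.27 for Mrpl36 and 0.52 for Mrps27. Genes with these letters thus lay at both ends of the range.

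Start sites pointing away from those of a neighbour within 1000 bases were found for 16 of the 60 members, or 26.7%, against 16.6% of tested genes. Mrpl46 (large subunit) and Mrps11 (small subunit) are each other's neighbour, 234 bases apart, and had log2 fold changes of -0.11 and -0.13. Of 9 tested neighbours, Mrpl46 and Mrps11 among them, 1 passed the test, where 2.88% of all tested probe sets passed in either direction. This was Pnpla7, a lysophospholipase gene, which rose by 1.76 ± 0.16 (log2, limma adjusted p = 0.00184). Its start lies 996 bases from that of Mrpl41, at the edge of the search, and Mrpl41 itself was at -0.14. These neighbours, with Mrpl41, Mrpl46 and Mrps11, were chosen after their values were seen. The neighbour of Mrps27 is Ptcd2, at -0.19 ± 0.24 (adjusted p = 0.724), 91 bases away.

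The tested genes from lists for mitochondrial translation, transcription and DNA gave no call either. Of 99 listed genes for translation factors, aminoacyl-tRNA synthetases, ribosome assembly, mitochondrial transcription and ribosomal proteins under other symbols, 53 were on the array and 48 were tested, of which 0 rose and 0 fell, against 1.5% and 1.38% of all tested probe sets. At an unadjusted p under 0.05, 2 were lower and 6 higher in diabetic arrays, where 10.3% and 9.54% of all tested probe sets were. Their median log2 fold change was -0.0011. The smallest p was that of Gfm1, the mitochondrial elongation factor that moves the ribosome along the messenger. Gfm1 gave 1052.6, 1103.7 and 1419.1 in diabetic arrays, against 2118.0, 1910.2 and 1736.5 in normal ones, with no overlap and a log2 fold change of -0.69 ± 0.17 (limma adjusted p = 0.0644).

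Next came Polg2, the accessory subunit of the mitochondrial DNA polymerase, at 0.81 ± 0.24 (log2, limma adjusted p = 0.104), with no overlap. It was followed by Mettl17, an assembly factor of the small subunit, at 1.00 ± 0.31 (adjusted p = 0.119), with overlapping groups. Mettl17 gave 229.9, 363.4 and 382.9 in diabetic arrays, against 143.2, 95.5 and 246.7 in normal ones. Kars1, the lysyl-tRNA synthetase of both cytosol and mitochondria, was at 0.45 ± 0.16 (adjusted p = 0.156). The 5 ribosomal proteins with other symbols, which the rule for naming genes did not pick, all had log2 fold changes below 0. They ran from -0.30 for Aurkaip1 to -0.0070 for Chchd1, with Dap3, the GTP-binding protein of the small subunit, at -0.023 ± 0.17 (adjusted p = 0.962). These 5 and the next 3 genes were chosen after their values were seen. Tfam, which packages mitochondrial DNA, averaged 629 ± 64.3 in diabetic and 596 ± 31.2 in normal arrays (adjusted p = 0.840). Ppargc1a, the coactivator of mitochondrial biogenesis, was at 0.13 ± 0.16 (adjusted p = 0.715), and Tufm, the elongation factor that brings aminoacyl-tRNA, at -0.11 ± 0.16 (adjusted p = 0.753).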

How the data were processed

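The authors deposited linear signal intensities, a single value for each probe set on each array. No label or header names the software. Trimmed means (2% off each end) of the deposited intensities were all 500.2, so they were used unscaled. The 57 control probe sets were left out. Names came from the platform annotation, updated by gene number through a RefSeq table (GRCr8), which held all 74 members.

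Values were turned into log2(signal + 16), and probe sets whose mean log2 value lay above the 40th percentile were tested (9519 of 15866). All 6 arrays entered a limma 3.58.1 fit in R 4.3.3 (lmFit, eBayes, group as only term, two-sided), with Benjamini-Hochberg adjustment over all tested probe sets. The fit was also run on simulated data as a check of the code, and no result here rests on it. Precision is limited by the number of arrays. The labels do not say whether rats were handled together. Summaries used Python 3.11.15 and figures matplotlib 3.10.9.

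The members and gene lists were chosen with earlier results of these data known. Named are all members that pass, the 5 largest differences each way per subunit, members with several probe sets, a panel with known roles and the leading pathway genes. Exceptions are marked in the text. Mrps36, of the panel, was not analysed here. Alternatives were other pseudocounts (1, 64), scalings (quantile, median) and filters (none, 60th percentile), an intensity trend, a replicate block, leaving out arrays singly, a threshold of 0.1, every probe set, and subunits by structure.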

Additional observations from a re-analysis of the deposited data

How the results depend on the processing

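The count of 0 risen and 0 fallen members held with both other pseudocounts, both scalings, no filter, every probe set of the members, the replicate block and each array left out. It did not hold under 3 settings. With the filter at the 60th percentile 1 member fell (Mrpl42, limma adjusted p = 0.0475), and with an intensity trend 3 fell (Mrpl42, Mrps16 and Mrpl37, adjusted p from 0.0304 to 0.0373). At a threshold of 0.1, 1 rose (Mrps31) and 3 fell (the same 3 as with the trend), where 3.42% of all probe sets tested rose and 3.66% fell. Adjusted p values over all alternatives ran from 0.0304 to 0.270 for Mrpl42, 0.0332 to 0.276 for Mrps16, 0.0373 to 0.272 for Mrpl37 and 0.0506 to 0.275 for Mrps31. Over all probe sets, 274 were called, against 18 without the filter, 437 with the 60th percentile, 527 with the trend and 100 to 202 with 1 array left out. The members' median stayed between -0.10 and -0.047, that of the conserved class between -0.14 and -0.074, and that of the mitochondrion-specific class between -0.098 and 0.060. The conserved minus mitochondrion-specific median was -0.17 to -0.046 with 1 array left out. The large minus small difference was -0.037 to 0.10 with 1 array left out. Of 490 values for 35 named members, 471 kept direction and side of the threshold and 15 changed sign, all with 1 array left out. Those genes ranged from -0.058 to 0.16 (Mrpl10), -0.035 to 0.18 (Mrpl11), -0.23 to 0.035 (Mrpl44), -0.17 to 0.17 (Mrpl49), -0.098 to 0.051 (Mrpl50), -0.14 to 0.14 (Mrps5), -0.16 to 0.024 (Mrps12), -0.0011 to 0.073 (Mrps18a) and -0.00056 to 0.11 (Mrps26). The replicate block gave 183 calls over all probe sets, and the numbers were not taken to pair arrays, since same-numbered arrays deviated together at r of 0.014 to 0.066 and others at -0.084 to 0.069. The cause of these changes was not tested.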
